A study of Mus musculus with 28 samples.

Results

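The oxidative phosphorylation subunits of mouse male germ cells were followed here, gene by gene, through 7 times after retinoic acid in mice with and without Stra8. Members were all entries of the deposited count tables whose symbols fall in families named for subunits of complexes I to V: the Nduf, Sdh, Uqcr, Cox and Atp5 families, and the mt-Nd, mt-Co, mt-Cytb and mt-Atp genes of the mitochondrial genome, with numbered pseudogenes left out. The choice rests on symbols and used no measured value, though it was made with earlier results of these data known. It takes in some entries that are not subunits, such as Atp5sl and Atp5l2-ps, and leaves out Cyc1, the cytochrome c1 of complex III. There were 97 members among 43280 entries, 84 coded in the nucleus and 13 in the mitochondrial genome. Of the nuclear-coded members 36 were placed by symbol in complex I, 4 in complex II, 8 in complex III, 18 in complex IV and 18 in complex V. Of the mitochondrially coded members 7 belong to complex I, 1 to complex III, 3 to complex IV and 2 to complex V.

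All animals came from a strain given as Derived from C57BL/6 x 129s4/SvJae, carried the PIWIL2-eGFP germ cell reporter and were given WIN 18,446, an inhibitor of retinoic acid synthesis, over 7 days. The groups were Stra8 wild type (WT) and Stra8 knockout (KO), collected either straight after WIN 18,446 (0 h) or 12, 18, 48, 72, 96 or 120 h after an injection of retinoic acid. Reporter-positive cells were sorted from the testis, and polyA RNA was sequenced on an Ion Proton instrument from 2 libraries per group, 28 in all. The labels give neither ages nor the animals behind each library, so p-values measure only the spread between these libraries, which may be technical.

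Oxidative phosphorylation is carried out in the inner mitochondrial membrane. Complex I (NADH dehydrogenase) and complex II (succinate dehydrogenase) pass electrons to ubiquinone, complex III passes them to cytochrome c, complex IV reduces oxygen, and complex V, the ATP synthase, uses the resulting proton gradient. Complexes I, III, IV and V join subunits made from both genomes, while all subunits of complex II are coded in the nucleus. In the testis, spermatogonia are in contact with the blood supply, and cells that enter meiosis move behind the Sertoli cell barrier, where lactate and pyruvate from Sertoli cells are a main fuel.

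Several libraries stood apart. Library totals were 5757921 to 10147341 reads in WT. KO totals were 914126 to 9517360 reads, and the lowest 3 were the KO libraries of the second count table at 72, 96 and 120 h, with 1079696, 914126 and 1031189 reads, called the shallow KO libraries. Each count table holds 1 library per group. The 7 WT libraries of the first table were lower than those of the second at all 7 times for 49 of 84 nuclear-coded and 7 of 13 mitochondrially coded members, against 1 of 84 and 0 of 13 for the KO libraries. The share over all genes is not given for this count, so it does not show whether the split is particular to these members. The mean difference of KO from WT over the times is therefore also given for the tables singly. A fit within 1 table has 1 library per group. Its p-values draw on the spread across times, over which WT libraries of 1 table varied together. They do not measure the spread between replicates. Deviations from group means did not pair KO with WT libraries of the same table and time (correlations -0.129 to 0.0433). Results within each table therefore rest on which KO libraries the table holds. Stra8 in CPM (read counts scaled to the same library total) checked the genotype labels: the lower WT library had 7.65 CPM at 0 h, 712 at 12 h, 745 at 18 h, 97.1 at 48 h, 57.4 at 72 h, 40.9 at 96 h and 17.4 at 120 h, and the higher KO library of those times had 1.71, 30.7, 21.5, 62.1, 1.85, 5.47 and 1.66 CPM. Every KO library was below both WT libraries of its time. Germ cell markers were high in all libraries: 7 of them, among them Ddx4, an RNA helicase of the germ line, and Piwil2, the gene the reporter is named after, summed to 3009 to 5692 CPM in WT and 4149 to 5699.5 CPM in KO. In bulk RNA of this kind, fewer cells of a type and less RNA per cell cannot be told apart.

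The sequences around transcription starts are shown for 4 members on which the results below turn or which hold a pair of the motifs searched. RefSeq start-site windows of 300 bases (250 before and 50 after the start, GRCm38.p6) were matched for 69 of the 84 nuclear-coded members, and 4 motifs of known regulators of respiratory genes were searched on both strands: GCATGCGC (NRF1), CCGGAAGT (the GABPA/ETS site), AAGATGGC (YY1) and TCAAGGTCA (ESRRA). Each sequence reads 5′ to 3′ on the gene's strand, and capitals mark the motif or its reverse complement. Sdhd, the succinate dehydrogenase membrane anchor called higher in KO in both count tables, has an ESRRA match within the 50 bases after its start (chr9:50603800-50604099, minus strand). Ndufb8, a complex I subunit of the membrane arm, has a YY1 match within the 50 bases after its start (chr19:44555393-44555692, minus strand). Atp5f1 (Atp5pb in RefSeq), the ATP synthase peripheral stalk subunit b, has a YY1 match across its start (chr3:105959214-105959513, minus strand). Uqcr11, a small complex III subunit, is the member with both a GABPA and an NRF1 match (chr10:80406772-80407071, minus strand).
Sdhd: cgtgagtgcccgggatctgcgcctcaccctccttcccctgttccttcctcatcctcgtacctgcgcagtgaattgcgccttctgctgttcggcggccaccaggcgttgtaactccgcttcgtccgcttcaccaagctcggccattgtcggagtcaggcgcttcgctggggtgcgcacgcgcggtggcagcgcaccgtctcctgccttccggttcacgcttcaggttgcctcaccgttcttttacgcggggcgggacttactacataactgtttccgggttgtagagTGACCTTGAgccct
Ndufb8: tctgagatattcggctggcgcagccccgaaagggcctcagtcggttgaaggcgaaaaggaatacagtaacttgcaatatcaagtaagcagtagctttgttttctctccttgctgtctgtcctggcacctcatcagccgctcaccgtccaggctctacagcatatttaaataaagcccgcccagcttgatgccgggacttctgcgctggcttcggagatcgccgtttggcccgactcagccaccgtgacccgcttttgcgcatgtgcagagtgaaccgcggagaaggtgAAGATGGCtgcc
Atp5f1: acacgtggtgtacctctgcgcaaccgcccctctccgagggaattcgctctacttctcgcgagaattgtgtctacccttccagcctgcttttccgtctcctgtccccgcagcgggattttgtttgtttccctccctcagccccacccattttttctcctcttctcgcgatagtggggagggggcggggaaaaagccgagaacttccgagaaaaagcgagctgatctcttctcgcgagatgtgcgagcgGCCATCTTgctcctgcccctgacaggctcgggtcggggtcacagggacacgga
Uqcr11: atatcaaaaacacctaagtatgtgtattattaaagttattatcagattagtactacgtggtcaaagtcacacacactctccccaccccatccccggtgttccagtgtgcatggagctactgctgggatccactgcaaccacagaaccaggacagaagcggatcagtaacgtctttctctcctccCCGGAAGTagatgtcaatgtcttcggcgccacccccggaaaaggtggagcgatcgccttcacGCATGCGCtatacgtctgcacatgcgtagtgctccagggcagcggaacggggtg

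Across the 75 windows of the matched members, the YY1 motif was in 12 (16%), against 2.75% of the 32851 windows in the table. The NRF1 motif was in 10 windows (13.3%), against 2.71% of all windows, among them those of Sdhb, Uqcrc1, Cox6a1 and Atp5g2. The GABPA motif was in 5 (6.67%), against 3.89%, and the ESRRA motif in 2 (2.67%), those of Sdhd and of Atp5g3, an isoform of the ATP synthase c ring, against 0.423%. Over the 21263 windows of protein-coding genes the shares were 3.05% for YY1, 3.52% for NRF1, 5.15% for GABPA and 0.334% for ESRRA. In all, 27 of the 69 members had at least 1 of the 4 motifs. These are matches of letters, not sites of binding.

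Per length, the transcripts of the mitochondrial genome were far more abundant than the nuclear ones. The median level over the 28 libraries, in CPM per kilobase of exon, had a median of 1041 over the 13 mitochondrially coded members and of 27.6 over 82 nuclear-coded members matched to an annotated gene. mt-Co1, the catalytic subunit of complex IV, was highest at 11090 CPM per kb, followed by mt-Nd1 at 7128, mt-Cytb, the cytochrome b of complex III, at 6829.5, and mt-Nd2 at 5129.5 CPM per kb. mt-Nd6 was the lowest at 41.8 CPM per kb. It is the member read from the opposite strand and shares 2.7% of its bases with mt-Nd5, and since the use of strand in counting is not given in the sources used here, its reads cannot be told apart from antisense reads. Reads of the mitochondrial genes may also be split with their nuclear copies, so their levels are uncertain to that extent.

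Among nuclear-coded members the highest per length were Cox4i1, the main isoform of complex IV subunit 4, at 207 CPM per kb, and Atp5b, the catalytic beta subunit of ATP synthase, also at 207. Atp5a1, its alpha subunit, stood at 173, Cox6a1 at 159.7, Cox8a at 142 and Ndufb9 at 142 CPM per kb. Atp5b was the highest member in plain CPM: 729 to 994 (median 842) in WT and 857 to 1109.8 (median 927) in KO. In complex I, Ndufv1, the flavoprotein that binds NADH, stood at 69.8 CPM per kb, and Ndufb2 was the lowest per length at 0.98. The place of Ndufb2 rests on the exon length used. Reads recovered for the shallow KO libraries (below) gave 5.82 to 8.71 plain CPM for Ndufb2 and 2.62 to 4.69 for Ndufb4. In complex II, Sdha, the catalytic flavoprotein, stood at 86.0 CPM per kb, Sdhd at 46.3, the iron-sulfur subunit Sdhb at 40.7 and the membrane anchor Sdhc at 23.7. In complex III, the core subunit Uqcrc1 stood at 47.0, the small subunits Uqcr11 and Uqcr10 at 82.7 and 46.6. In complex V, Atp5l, which codes for subunit g, was the lowest per length at 0.449, and the pseudogene-like entry Atp5l2-ps stood at 1.36. This order too rests on exon lengths. The same recovered reads gave 1.21 to 2.90 plain CPM for Atp5l and 0.223 to 0.243 for Atp5l2-ps. All 4 subunits of complex II thus lay between 23.7 and 86.0 CPM per kb, while complex I spanned 0.98 to 142 and complex IV 0 to 207. These spans depend on the exon lengths used.

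Cox isoform sets each had 1 clearly leading gene, except for subunit 7a and 7b. Cox4i1 had a median of 159 CPM per kb in WT and 214 in KO, against 0.389 and 0.995 for Cox4i2, the isoform known from lung. Cox6a1 led Cox6a2, the heart and muscle form, which had a mean of 0.223 CPM and was at 0 in 8 of 14 WT and 4 of 14 KO libraries. Cox6b1 had medians of 67.2 in WT and 97.1 in KO, and Cox6b2, the isoform known from testis, 6.87 and 8.17 CPM per kb. For subunit 7b the order was the other way in WT: Cox7b2 had a median of 16.0 CPM per kb and Cox7b 6.85, while in KO the medians were 15.5 and 12.6, and the ranges of the isoforms overlapped in both genotypes. This order rests on the exon lengths used. The highest library value was 31.6 CPM per kb for Cox7b2 and 20.8 for Cox7b, but 17.1 and 25.3 in plain CPM. Cox7a2 and Cox7a2l, now known as a factor of supercomplex assembly, were at similar levels, 43.5 and 46.1 CPM per kb in WT, with Cox7a1, the muscle form, at 2.46. Cox8a had medians of 111 in WT and 156 in KO, Cox8c, known from testis, 5.98 and 5.89, and Cox8b, the muscle form, had no read in any of the 28 libraries. Among the ATP synthase c-ring isoforms, Atp5g3 led with 35.2 CPM per kb in WT and 50.5 in KO, before Atp5g1 (10.0 and 16.8) and Atp5g2 (5.97 and 5.64). Cox6a2 and Cox8b were the only members below the expression filter, so 82 nuclear-coded and 13 mitochondrially coded members were among the 17519 genes tested.

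**Figure D1:**
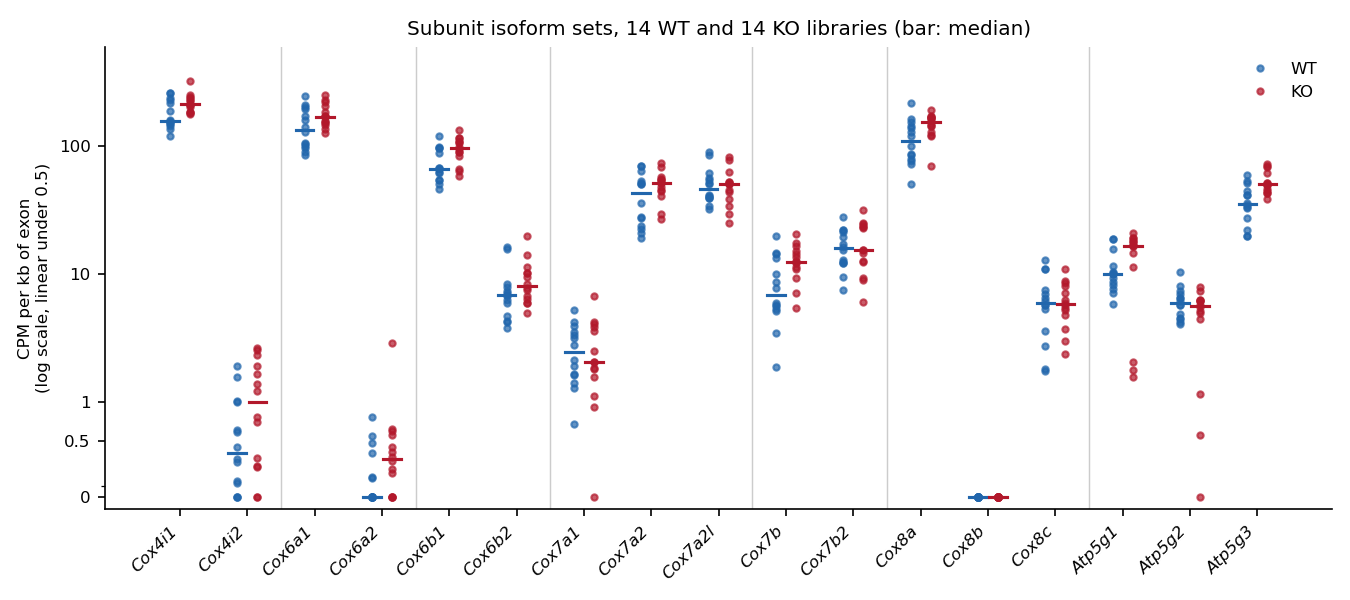
Levels of the subunit isoform sets in CPM per kb of exon (logarithmic axis, linear under 0.5) in the 14 WT and 14 KO libraries, with a bar at each median. Cox4i1, Cox6a1, Cox6b1, Cox8a and Atp5g3 lead their sets, Cox7b2 lies at or above Cox7b, and Cox8b is at 0 in all 28 libraries.

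Summed over members, the mitochondrially coded subunits took 1.91 to 6.64% of each WT library (median 3.07%) and 4.50 to 8.32% of each KO library (median 5.66%). The nuclear-coded subunits together took 0.443 to 0.777% in WT (median 0.609%) and 0.588 to 0.869% in KO (median 0.656%). The WT libraries split by count table. In the first table the mitochondrial share was 1.91 to 2.97% and in the second 3.18 to 6.64%, so the WT tables did not overlap. The mean difference, KO minus WT, was 2.02 percentage points for the mitochondrial share, 3.58 in the first table (KO higher at 7 of 7 times) and 0.474 in the second (5 of 7). For the nuclear share it was 0.0604 points, 0.188 in the first table (KO higher at 7 of 7 times) and -0.0674 in the second (0 of 7), so its direction depended on the table. The log2 ratio of the mitochondrial to the nuclear sum was 1.93 to 3.37 in WT and 2.76 to 3.80 in KO, with a mean difference of 0.58, 0.87 in the first table and 0.29 in the second. The spread between the libraries of a group (pooled SD) was 1.65 points for the mitochondrial share, 0.111 points for the nuclear share and 0.40 for the log2 ratio. These sums are descriptions and were not tested.

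**Figure D2:**
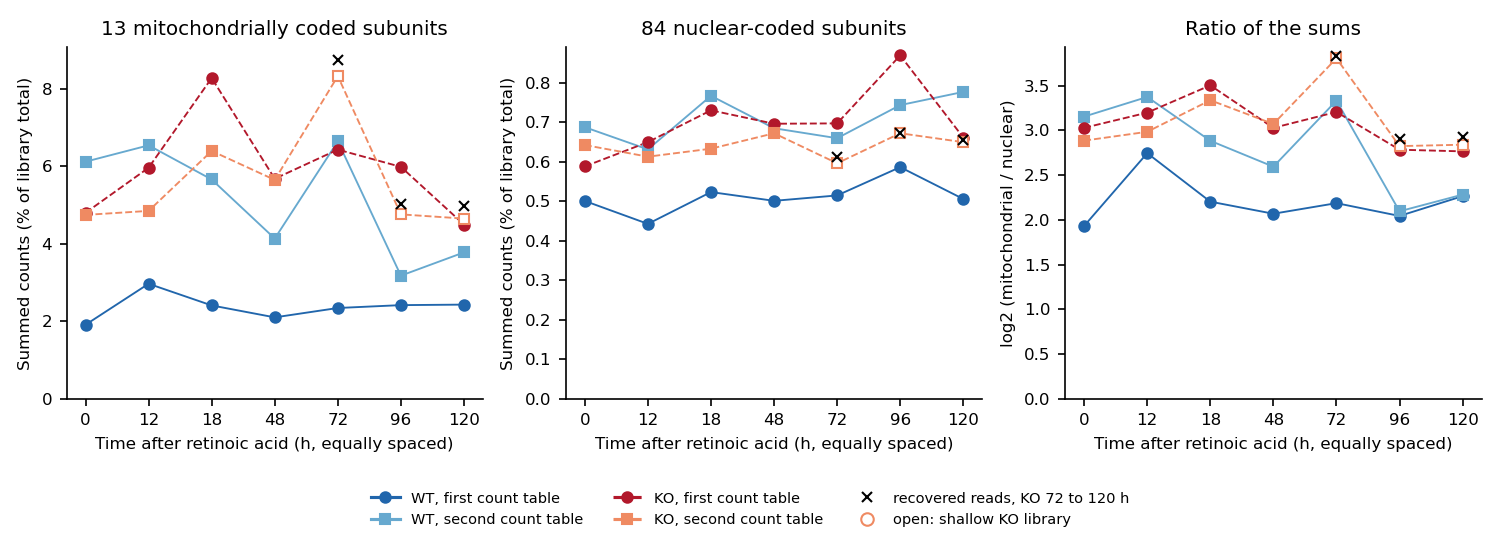
Summed counts of the 13 mitochondrially coded and 84 nuclear-coded subunits as percent of each library total, and the log2 ratio of the sums, against time (h, equally spaced), with 1 point per library. WT libraries of the first count table (1.91 to 2.97% mitochondrial) lie under all KO libraries (4.50 to 8.32%), while WT libraries of the second table overlap them; crosses give the reads recovered for the 3 shallow KO libraries.

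The make-up of the nuclear sum moved little. Complex V gave 36.2 to 41.6% of it (median 38.0%), complex I 26.6 to 32.6% (29.4%), complex IV 10.4 to 16.7% (14.8%), complex II 7.18 to 12.0% (9.25%) and complex III 7.02 to 9.20% (8.29%). Of the mitochondrial sum, complex I gave 38.3 to 54.2% (median 44.6%), complex IV 24.7 to 45.2% (38.7%), mt-Cytb 12.3 to 21.1% (14.6%) and complex V 0.0345 to 2.69% (2.01%). The lowest complex V shares came from the shallow KO libraries, whose deposited counts nearly lack 5 of the 13 mitochondrial genes. Their mt-Atp8 was 0.926 to 2.19 CPM against 39.0 to 181 in the other 25 libraries. mt-Atp6 was 14.2 to 46.3 against 394 to 1358, mt-Nd4l 1.09 to 5.56 against 45.9 to 166, mt-Co2 40.7 to 84.3 against 295 to 1097, and mt-Co3 34.9 to 77.8 against 199.7 to 943 CPM. The other 8 mitochondrial genes of these libraries stayed inside or above the range of the rest, for example mt-Co1 at 12552 to 20420 against 7010.5 to 26241 CPM. The same 3 groups appear in a deposited CPM table with other values, from which 4479729, 4190650 and 4122223 whole reads were recovered, and there mt-Atp6 was 801 to 1303 CPM. Nuclear-coded members were touched too: 8 of 84, among them Atp5g1, Atp5g2, Uqcrb, Atp5h, Atp5f1 and Ndufs5, were in all 3 deposited columns under 50% of their recovered level. With at least 5 CPM in the recovered columns this held for 6 of 74 nuclear-coded members (8.11%) and for 572 of 10857 genes (5.27%). Which of the deposited versions holds the right values for these groups is not given in the sources used here.

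**Figure D3:**
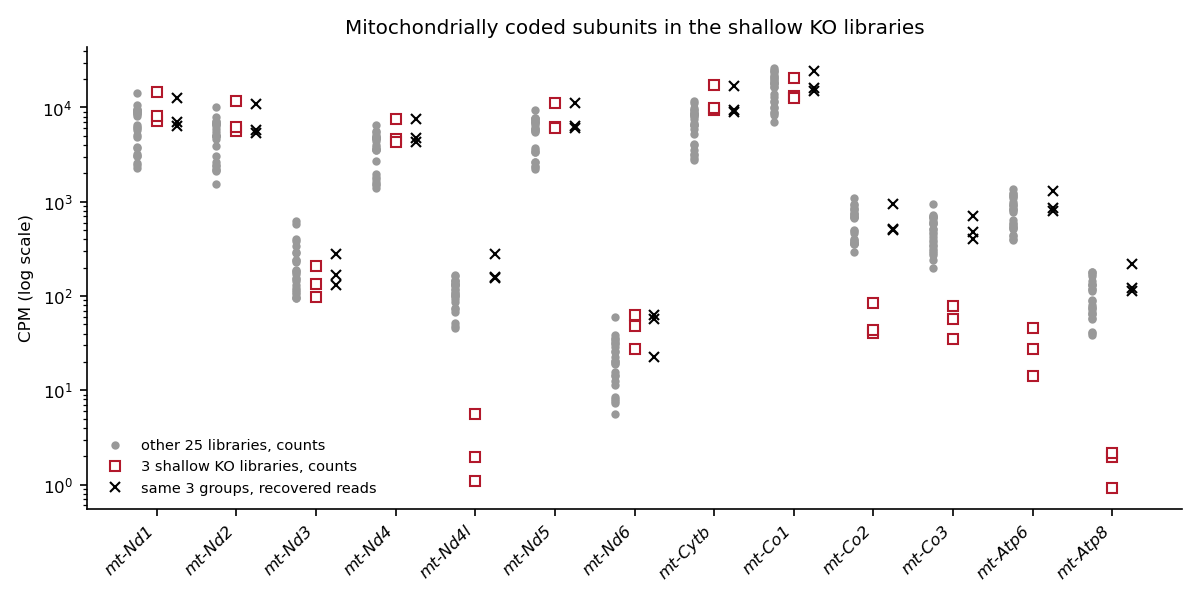
CPM (logarithmic axis) of the 13 mitochondrially coded subunits in the 25 other libraries (grey), in the deposited counts of the 3 shallow KO libraries (squares) and in the reads recovered for the same groups (crosses). mt-Nd4l, mt-Co2, mt-Co3, mt-Atp6 and mt-Atp8 lie below all other libraries in the deposited counts and not in the recovered reads.

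The comparison of KO with WT asked which subunits differ without Stra8. As the mean over the 7 times, 12 of 82 nuclear-coded members were higher and 3 lower in KO, and 5 of 13 mitochondrially coded members were higher and 0 lower (edgeR quasi-likelihood test, adjusted p under 0.05). Of all genes tested 17.4% were higher and 20.1% lower, so the nuclear-coded members were called higher at about the background share (14.6%) and lower below it (3.66%), and the mitochondrial ones higher above it (38.5%). The median log2 fold change was 0.14 over nuclear-coded members (60 of 82 positive), 0.44 over mitochondrial members (13 of 13 positive) and -0.02 over all genes tested. All these calls mix WT tables that differ. Every one of the 20 called members kept its sign in each table. They were picked on the mean over the same libraries, so kept signs are partly built in. The share over all called genes is not given here. Without the 3 shallow KO libraries 16 of 83 nuclear-coded members were higher and 0 lower (background 16.7% higher and 18% lower): the 3 called lower, Ndufb5 (-0.25, adjusted p = 0.115), Uqcrc2 (-0.25, adjusted p = 0.0567) and Atp5f1 (-0.46, adjusted p = 0.0589), no longer passed. With the recovered reads in place of those libraries they passed again, at -0.32, -0.28 and -0.44. With the library number as a block within each genotype 33 nuclear-coded members were higher and 4 lower, and 7 mitochondrial members higher and 0 lower (background 20.9% higher and 22.2% lower). Leaving out 1 of the 28 libraries at a time, the call was lost in 22 refits for mt-Nd1, 20 for Cox6b1, 18 for mt-Nd6, 17 for Ndufb3, 12 for Ndufb5, 11 for Atp5b, 7 for Atp5f1 and 4 for Atp5sl, and in none for the other called members.

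Complex II gave 1 call, Sdhd, which passed in each count table alone. Sdhd was 33.0 to 52.4 CPM (median 41.6) in the WT libraries of the first table, 40.8 to 65.3 (51.3) in those of the second, and 53.3 to 74.6 (63.0) in KO. Every WT library of the first table was below every KO library, and those of the second overlapped KO. Its log2 fold change was 0.38 ± 0.08 (SE, adjusted p = 0.000533), with 0.48 in the first table and 0.34 in the second. No other member passed in both. The share of all genes that passed in both tables is not given here. Sdhd lies on chromosome 9 at 50596357 to 50603812 (GRCm38, minus strand) and shares no exon base with another gene.

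In complex I, 7 nuclear-coded members were higher and 1 lower. Ndufv3, an accessory subunit of the NADH-binding module, was 7.08 to 18.8 CPM (median 9.10) in the first WT table, 8.51 to 31.9 (22.7) in the second and 19.7 to 40.8 (28.5) in KO. Its log2 fold change was 0.92 ± 0.19 (adjusted p = 0.000695), 1.47 in the first table and 0.38 in the second, where it did not pass (adjusted p = 0.312). Against the second WT table alone, with all KO libraries, it passed at 0.59. Ndufb8 was 12.2 to 30.8 CPM in the first WT table, 23.9 to 66.3 in the second and 36.8 to 90.8 in KO, with a log2 fold change of 0.74 ± 0.23 (adjusted p = 0.0183), 1.36 in the first table and 0.39 in the second, where it did not pass (adjusted p = 0.0605). Ndufb11, an X-linked subunit of the membrane arm that shares 12.9% of its exon bases with Rbm10, was higher by 0.63 ± 0.17 (adjusted p = 0.00611), 1.06 in the first table and 0.06 in the second. The membrane-arm subunits Ndufb10 (0.46 ± 0.15) and Ndufb3 (0.43 ± 0.16) and the core subunit Ndufv1 (0.32 ± 0.09) were also higher, at 0.92, 0.87 and 0.51 in the first table and 0.12, 0.05 and 0.20 in the second, where none of them passed. Ndufb5, also of the membrane arm, was lower, with -0.29 ± 0.11 (adjusted p = 0.0402), -0.07 in the first table and -0.46 in the second.

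Complexes III to V gave 6 further nuclear-coded calls. Uqcrc2, a core subunit of complex III that shares 19.7% of its exon bases with Pdzd9, was lower in KO (-0.29 ± 0.09, adjusted p = 0.0128), -0.08 in the first table and -0.45 in the second. Cox6b1 was higher by 0.40 ± 0.15 (adjusted p = 0.0408), 0.77 in the first table and 0.07 in the second. Atp5g3 was 43.3 to 78.2 CPM in the first WT table, 72.4 to 131 in the second and 84.9 to 160.4 in KO, a log2 fold change of 0.50 ± 0.15 (adjusted p = 0.0133) that was 0.97 in the first table and 0.18 in the second. Atp5sl, named as an ATP synthase subunit-like gene and now known as a complex I assembly factor, was higher by 0.24 ± 0.07 (adjusted p = 0.0127), 0.32 in the first table and 0.19 in the second. Atp5b was higher by 0.16 ± 0.05 (adjusted p = 0.0227), 0.20 in the first table and 0.17 in the second, the smallest gap between tables among the 20 called members. Atp5f1 was lower, with -0.65 ± 0.21 (adjusted p = 0.0267), -0.10 in the first table and -1.19 in the second, which holds the shallow KO libraries whose deposited Atp5f1 is under 50% of the recovered level.

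Of the mitochondrially coded members, mt-Nd2 was 1539.8 to 2617 CPM (median 2239.7) in the first WT table, 3075 to 7242 (5552) in the second and 4657 to 11659 (6474) in KO. Its log2 fold change was 0.81 ± 0.25 (adjusted p = 0.0206), 1.62 in the first count table and 0.32 in the second, where it did not pass (adjusted p = 0.168). With all KO libraries against the WT libraries of the second table it passed at 0.34. mt-Nd5 was 2235 to 3549.5 CPM in the first WT table, 3365 to 7819 in the second and 5775 to 11147 in KO, with 0.72 ± 0.22 (adjusted p = 0.0184), 1.40 in the first count table and 0.28 in the second, where it did not pass (adjusted p = 0.206). All KO libraries against the second table's WT libraries gave 0.31, past the threshold. mt-Cytb was 2786 to 4082 CPM in the first WT table, 5284 to 8841 in the second and 5879 to 17529 in KO, with 0.75 ± 0.24 (adjusted p = 0.0225), 1.41 in the first count table and 0.34 in the second (adjusted p = 0.172). mt-Nd1 (0.72 ± 0.27, adjusted p = 0.0452) and mt-Nd6 (0.87 ± 0.31, adjusted p = 0.0389) were higher as well, at 1.56 and 1.38 in the first table and 0.21 and 0.67 in the second, where neither passed. mt-Nd4 had 0.65 ± 0.27 (adjusted p = 0.0721) and mt-Co1 0.43 ± 0.21 (adjusted p = 0.115), neither of which passed. The remaining members had 0.44 for mt-Atp8, 0.34 for mt-Nd4l, 0.22 for mt-Co2, 0.05 for mt-Nd3 and 0.01 each for mt-Co3 and mt-Atp6, and 5 of these 6, all but mt-Nd3, are the genes nearly missing from the shallow KO libraries. Without those libraries 4 mitochondrial members passed: mt-Atp8 (0.79), mt-Nd4l (0.70), mt-Nd5 (0.69) and mt-Co2 (0.59). With the recovered reads in their place 10 of 13 passed, all higher, with a median of 0.71, and those that did not were mt-Nd3, mt-Nd4 and mt-Co3.

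By table, the pattern over the subunits changed with the WT libraries used. In the first table alone 55 of 80 nuclear-coded members were higher and 0 lower, with a median of 0.69, and 13 of 13 mitochondrial members were higher, with a median of 1.24. Of all 14944 genes tested there, 19.8% were higher and 18.2% lower. In the second table alone 1 of 79 nuclear-coded members was higher (Sdhd) and 21 were lower, with a median of -0.33, and 0 of 13 mitochondrial members passed, with a median of -0.05. Of all 13644 genes tested there, 9.69% were higher and 5.24% lower. With all KO libraries against the first WT table, 51 of 83 nuclear-coded and 7 of 13 mitochondrial members were higher and 0 lower (background 21.1% higher and 21.8% lower). Against the second WT table, 2 of 83 nuclear-coded members, Ndufv3 and Sdhd, and the mitochondrial mt-Nd2 and mt-Nd5 were higher, and 7 were lower: Cox5a, Ndufa1, Ndufa11, Ndufb5, Ndufs1, Ndufv2 and Uqcrc2 (background 15.5% higher and 11.5% lower). The members called higher in both fits were thus Ndufv3, Sdhd, mt-Nd2 and mt-Nd5. Their log2 fold changes were 1.38, 0.52, 1.56 and 1.34 against the first WT table. Against the second they were 0.59, 0.24, 0.34 and 0.31. Both fits use the same KO libraries, and the share of all genes called in both is not given here. This overlap therefore does not show a trait particular to these members. What separates the WT tables is not given in the labels, and its part in these differences was not tested.

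**Figure D4:**
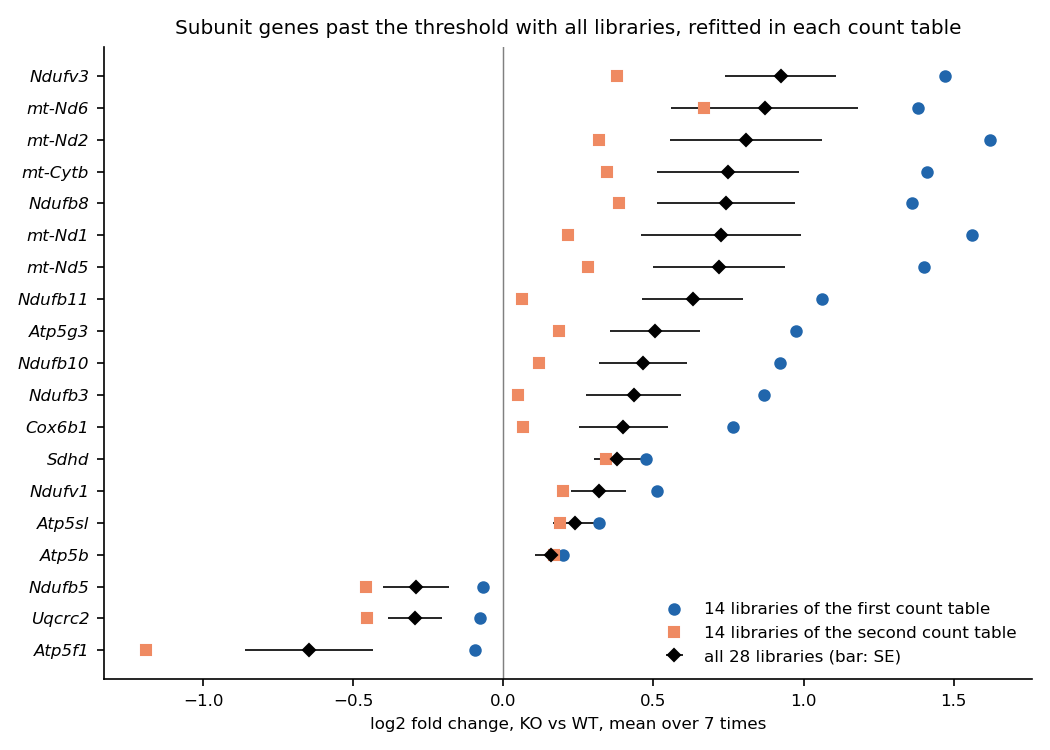
Log2 fold change of KO over WT, as the mean over 7 times, for 19 of the 20 subunits called with all 28 libraries (diamonds, bar: SE) and refitted within the first (circles) and the second (squares) count table. All shown keep their sign, which is partly built in, as they were picked on the mean over the same libraries. Sdhd and Atp5b lie close in both tables (0.48 and 0.34, 0.20 and 0.17), while Ndufv3 (1.47 and 0.38) and Ndufb11 (1.06 and 0.06) do not.

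At single times the calls depended on the block. Without it no member passed at 0 h, 12 h, 18 h, 48 h, 72 h or 96 h by edgeR's quasi-likelihood test, where 0%, 1.08%, 3.11%, 0.291%, 2.58% and 3.32% of all genes were higher and 0%, 0.097%, 1.04%, 0.0171%, 2.12% and 1.15% lower. At an unadjusted p under 0.05 there were 2, 0, 0, 1, 5 and 4 members at these times, and the share of all genes at that level is not given here. DESeq2 called 0, 0, 0, 0, 2 and 2 members, against 0%, 1.79%, 4.59%, 0.616%, 5.92% and 5.74% of all genes. Among members with the smallest p were Ndufs7 (0.67) at 0 h, Cox6b1 (0.82) and Ndufb8 (1.25) at 12 h, mt-Nd2 (1.18) and mt-Nd5 (0.97) at 18 h, and Ndufb10 (0.93) and Sdhd (0.41) at 48 h, all as log2 fold changes. At 72 h they were Ndufb7 (0.93 ± 0.28, adjusted p = 0.0536) and Ndufv3 (1.76 ± 0.51, adjusted p = 0.0545), and at 96 h Ndufv3 (1.65 ± 0.52, adjusted p = 0.076) and Ndufb11 (1.46 ± 0.46, adjusted p = 0.0777).

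With the library number as a block within each genotype, members passed at 5 of these times, all of them higher in KO. In every fit that uses it, this block takes the shift between the tables within each genotype out of the spread. Its p-values therefore do not measure that shift. At 12 h 4 nuclear-coded members passed (background 2.55% higher and 0.822% lower): Ndufb8 (1.33), Atp5k (1.01), Ndufa4 (0.88) and Atp5g3 (0.76). At 18 h 2 nuclear-coded and 6 mitochondrial members passed (background 4.59% and 2.15%), with mt-Nd2 (1.30), mt-Nd1 (1.23) and mt-Nd4 (1.11) among them. Without the block mt-Nd2, mt-Nd1 and mt-Nd4 had 1.93, 1.97 and 1.90 against the first WT table and 0.70, 0.52 and 0.35 against the second. At 48 h 5 nuclear-coded members passed (background 0.776% and 0.211%): Atp5k (1.37), Ndufb10 (0.99), Ndufb8 (0.97), Atp5g3 (0.82) and Ndufa13 (0.72). At 72 h 8 nuclear-coded and 4 mitochondrial members passed (background 5.15% and 4.73%), led by Ndufv3 (1.79), mt-Cytb (1.36) and mt-Nd2 (1.25). At 96 h 5 nuclear-coded and 4 mitochondrial members passed (background 5.61% and 3.13%), among them Ndufv3 (1.58), Ndufb11 (1.42) and Sdhd (0.66). The numbers pair the WT libraries, while for KO the correlations between deviations of same-numbered libraries were -0.138 to 0.567.

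At 120 h, 2 of 82 nuclear-coded members were higher in KO and 2 lower (background 8.54% higher and 6.88% lower), and 0 of 13 mitochondrial members passed. Atp5sl was 41.6 and 45.2 CPM in WT and 72.7 and 70.8 in KO, without overlap (0.64 ± 0.20, adjusted p = 0.0303). It had 0.66 (adjusted p = 0.0809) against the WT libraries of the first table, 0.54 (adjusted p = 0.118) against those of the second and 0.70 (adjusted p = 0.074) without the shallow KO library. Atp5f1 was 112 and 230.3 CPM in WT and 49.6 and 33.9 in KO (-2.08 ± 0.60, adjusted p = 0.0295), and -1.46 with the recovered reads, which give 81.0 CPM for the second KO library. Against the first and the second WT table it had -1.49 (adjusted p = 0.264) and -2.53 (adjusted p = 0.0515), and without the shallow KO library -1.84 (adjusted p = 0.0505). Uqcrc2 was 91.1 and 135 CPM in WT and 80.8 and 63.0 in KO (-0.72 ± 0.24, adjusted p = 0.0439), and -0.52 (adjusted p = 0.103) with the recovered reads. It passed against the second WT table (-1.01, adjusted p = 0.0067) and not against the first (-0.44, adjusted p = 0.271). With the block within genotype 6 nuclear-coded and 2 mitochondrial members were higher at 120 h and 8 nuclear-coded members lower (background 12% higher and 10.4% lower).

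The WT time course asked how subunits change as synchronised spermatogonia respond to retinoic acid. Between 0 and 12 h no WT member passed (2 at an unadjusted p under 0.05, 0 by DESeq2, which called 10.9% of all genes), while 5.36% of all genes rose and 5.53% fell. Those with the smallest p were Ndufv1 (-0.71 ± 0.24, adjusted p = 0.064) and Sdha (0.46 ± 0.18, adjusted p = 0.0974). Between 0 and 120 h, 6 of 82 nuclear-coded members rose and 2 fell in WT, against 14.2% and 14.7% of all genes, and 0 of 13 mitochondrial members passed, with a median of -0.33. The 6 that rose belong to complexes I, III, IV and V.

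Ndufv2, an iron-sulfur subunit of complex I, rose from 22.6 and 46.3 CPM at 0 h to 55.2 and 115 at 120 h, by 1.37 ± 0.45 (adjusted p = 0.0302). Ndufb5 rose from 25.6 and 38.0 to 49.3 and 74.4 CPM, by 1.02 ± 0.28 (adjusted p = 0.00875). Ndufs1, the largest subunit of complex I, rose from 106 and 138 to 144 and 183 CPM, by 0.48 ± 0.18 (adjusted p = 0.0477). For each of these 3 genes both libraries at 120 h were above both at 0 h. Uqcrc2 rose from 59.3 and 61.8 to 91.1 and 135 CPM (0.96 ± 0.23, adjusted p = 0.00345), Cox6b2 from 5.25 and 7.04 to 9.32 and 17.5 CPM (1.20 ± 0.44, adjusted p = 0.0439), and Atp5a1 from 422 and 534 to 587 and 755 CPM (0.54 ± 0.17, adjusted p = 0.0175). Ndufb11 fell from 33.7 and 47.6 to 10.2 and 11.3 CPM, by 1.86 ± 0.45 (adjusted p = 0.00422), and was the member with the steepest change. Atp5sl fell from 73.2 and 61.4 to 41.6 and 45.2 CPM (-0.58 ± 0.19, adjusted p = 0.0245). The count rests on single libraries: without the first table's WT library at 0 h, 1 member passed, and without the second table's WT library at 120 h, 2 did, with Ndufb11 past the threshold in every such refit.

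WT libraries of the same number varied together, and with that number as a block within each genotype 14 members rose and 8 fell between 0 and 120 h in WT, against 17.4% and 18.3% of all genes, again with 0 mitochondrial members. The block added among others Ndufa12 (1.38), Atp5f1 (1.28) and Uqcrq (0.82), which rose, and Cox7b (-1.35), Ndufv3 (-1.08), Cox8a (-0.97) and Cox7a2l (-0.92), which fell. In the test of any difference from 0 h at any of the 6 later times, 7 nuclear-coded members passed in WT, against 37.3% of all genes, led by Uqcrc2 (adjusted p = 0.0077), Ndufb7 (0.0101), Ndufb5 (0.0106), Atp5a1 (0.0131) and Ndufb11 (0.015), and 0 mitochondrial members. With the block 30 nuclear-coded members passed, against 48.1% of all genes.

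In KO no member passed at 12 h, where 4.13% of all genes rose and 4.44% fell from 0 h. Ndufv1 (-0.69 ± 0.24) was among those with the smallest p, 3 members had an unadjusted p under 0.05, and DESeq2 called 0, against 8.9% of all genes. Nor did any pass at 120 h, where 0.908% of all genes rose and 0.0457% fell (3 at an unadjusted p under 0.05, 0 by DESeq2, which called 1.23% of all genes). Set beside the WT values, KO had 0.46 ± 0.17 for Atp5a1 (adjusted p = 0.259), 0.74 ± 0.30 for Ndufb5 (0.329), 0.49 ± 0.24 for Uqcrc2 (0.464), 0.55 ± 0.47 for Ndufv2, 0.29 ± 0.18 for Ndufs1, 0.70 ± 0.46 for Cox6b2, -0.56 ± 0.45 for Ndufb11 and -0.17 ± 0.19 for Atp5sl. All 8 have the sign seen in WT, and none of them passed in KO. They were picked for passing in WT. The share of all genes called in WT that keep their sign in KO is not given here. This agreement therefore shows nothing particular to the subunits. The KO group at 120 h includes a shallow library. In the test of any time 0 nuclear-coded and 0 mitochondrial members passed in KO, against 15.8% of all genes (4 at an unadjusted p under 0.05, 0 by DESeq2, which called 18.7% of all genes). With the block within genotype 13 nuclear-coded members passed in KO, against 23.9% of all genes. The difference itself was tested as genotype by time: 0 members passed, against 0.108% of all genes, with 0 at an unadjusted p under 0.05. DESeq2 called 0 members, against 1.56% of all genes. With the block 0 members passed as well, against 1.55% of all genes, and without the expression filter 8 nuclear-coded and 13 mitochondrial members did, against 2.24%.

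**Figure D5:**
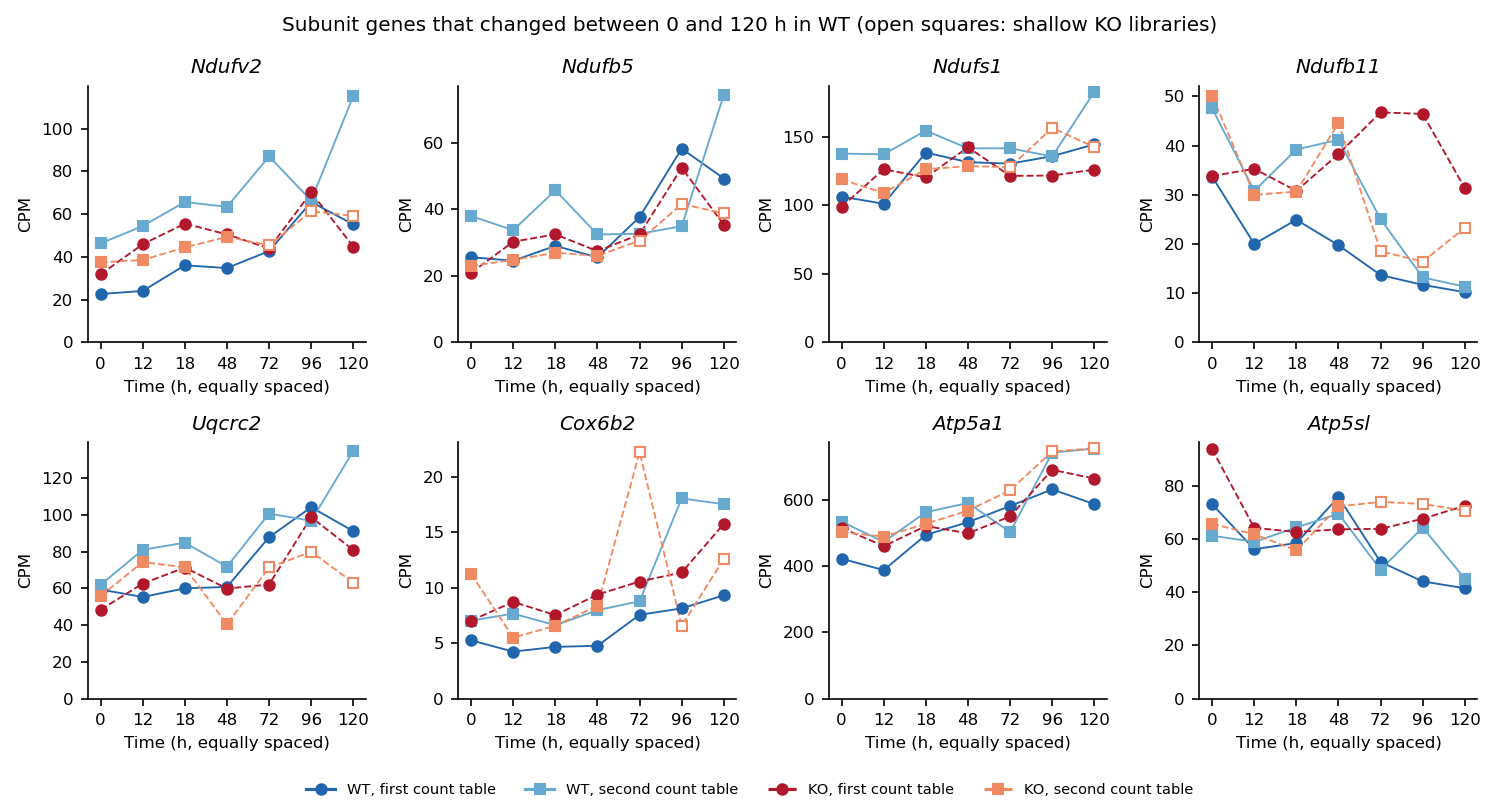
CPM against time (h, equally spaced) for the 8 subunits called between 0 and 120 h in WT, with 1 line per genotype and count table. Ndufb11 falls from 33.7 and 47.6 to 10.2 and 11.3 CPM in WT and is at 31.4 and 23.3 CPM in KO at 120 h, and Atp5a1 reaches 587 to 755 CPM in all 4 libraries at 120 h.

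Genes that regulate, feed and build the respiratory chain were tested in the same fits. Of 13 regulators, 5 rose and 1 fell between 0 and 120 h in WT (median 0.23, against -0.07 over all genes tested, of which 14.2% rose and 14.7% fell). The GABP subunits rose (Gabpb1 by 1.49 ± 0.21, Gabpa by 1.02 ± 0.20 and Gabpb2 by 0.61 ± 0.16), as did Nrf1 (0.87 ± 0.18) and Yy1 (0.79 ± 0.21), factors with known sites at respiratory genes. Ppargc1b, a coactivator of mitochondrial biogenesis, fell by 2.89 ± 0.61 (adjusted p = 0.000988). In KO against WT as the mean over times, 3 regulators were higher and 4 lower (median -0.14), against 17.4% and 20.1% of all genes. Esrra, a nuclear receptor of respiratory genes (0.64 ± 0.10), and Tfe3 (0.31 ± 0.07) were higher and passed in each count table alone, at 0.79 and 0.54 and at 0.31 and 0.36. Ppargc1b (1.10 ± 0.23) was higher with 0.90 in the first table, where it did not pass (adjusted p = 0.0799), and 1.32 in the second. Gabpa (-0.38 ± 0.08), Gabpb1 (-0.29 ± 0.08), Gabpb2 (-0.31 ± 0.06) and Nrf1 (-0.23 ± 0.07) were lower. Gabpa had -0.30 in the first table (adjusted p = 0.0577) and -0.40 in the second, where it passed. Gabpb1, Gabpb2 and Nrf1 passed in the first table, at -0.30, -0.39 and -0.30, and not in the second, at -0.19, -0.17 and -0.10. The KO comparison and the WT time course share WT libraries.

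Of 27 genes of the citrate cycle and pyruvate dehydrogenase, 7 rose and 9 fell between 0 and 120 h in WT (median 0.29), against 14.2% and 14.7% of all genes. Among the kinases that inactivate pyruvate dehydrogenase, Pdk2 rose by 2.06 ± 0.36 and Pdk1 fell by 1.83 ± 0.20. Pdha1, the X-linked E1 alpha subunit, fell by 1.42 ± 0.20, and so did Dlat (-1.26 ± 0.18), the E2 subunit. In KO against WT, 8 were higher and 5 lower (median 0.01), against 17.4% and 20.1% of all genes. Within the first table, 7 were higher and 3 lower (median 0.18, background 19.8% and 18.2%), in the second 3 and 0 (median -0.11, background 9.69% and 5.24%), so the sign of the median turned with the table. Pdk1 (0.73 ± 0.07) and Idh3g (0.51 ± 0.10), the gamma subunit of isocitrate dehydrogenase, were higher and passed in each table alone, at 0.86 and 0.63 and at 0.56 and 0.54. Pdk2 was lower, with -0.61 ± 0.14, at -0.59 in the first table and -0.54 in the second, where it did not pass (adjusted p = 0.0569).

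Of 27 electron and adenine nucleotide carriers, 8 rose and 3 fell between 0 and 120 h in WT (median 0.20), beside 14.2% and 14.7% over all genes. Coq5, a ubiquinone methyltransferase, rose by 1.46 ± 0.27 and Cyc1, the cytochrome c1 of complex III, by 1.24 ± 0.19. Slc25a4, an adenine nucleotide translocator, fell by 1.07 ± 0.28, and Cyct, the testis cytochrome c, fell by 1.21 ± 0.42. In KO against WT 4 carriers were higher and 3 lower (median -0.07), beside 17.4% and 20.1% over all genes. Their median also turned with the table: 11 were higher and 3 lower in the first (median 0.28, background 19.8% and 18.2%), 2 and 2 in the second (median -0.16, background 9.69% and 5.24%). Slc25a4 (0.81 ± 0.11), which exports ATP made by complex V, and Vdac1 (0.77 ± 0.10), the channel of the outer membrane, were higher and nearly alike in the tables, at 0.81 and 0.86 and at 0.88 and 0.71, past the threshold in each. Etfa, which passes electrons from fatty acid oxidation, was lower, with -0.69 ± 0.12 and passed in each table, at -0.59 and -0.76. Atpif1, the inhibitor of complex V, was higher by 0.37 ± 0.14, with 0.90 in the first table and -0.05 in the second.

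Of 76 mitochondrial ribosomal protein genes, 6 were higher and 3 lower in KO (median 0.04), where 17.4% and 20.1% of all genes were. Within the first table, 40 were higher and 0 lower (median 0.35, background 19.8% and 18.2%), in the second 0 higher and 7 lower (median -0.20, background 9.69% and 5.24%). Of 42 assembly factors, 2 were higher, Surf1 (0.36 ± 0.11) and Cox10 (0.26 ± 0.09), and 8 lower (median -0.04). Refitted by table, 10 of 41 were higher and 2 lower in the first (median 0.08) and 0 and 1 in the second (median -0.21). Atpaf1, an assembly factor of complex V, was lower, with -0.62 ± 0.17, at -0.53 in the first table and -0.69 in the second, where it did not pass (adjusted p = 0.0509). Of 30 genes for upkeep and expression of the mitochondrial genome, 3 were higher and 8 lower (median -0.11), with 4 and 1 of 29 in the first table and 0 and 1 in the second. Ssbp1, the mitochondrial single-strand binding protein (0.49 ± 0.11), was higher, and Polg, the mitochondrial DNA polymerase (-0.26 ± 0.06), and Mterf3 (-0.47 ± 0.14) were lower, none of them past the threshold in both tables. Between 0 and 120 h in WT 3 assembly factors rose and 1 fell, 5 ribosomal protein genes rose and 3 fell, and 4 upkeep genes rose and 2 fell, with the mitochondrial RNA polymerase Polrmt among those that rose (0.97 ± 0.21). All 3 lists had smaller shares in either direction than the 14.2% and 14.7% over all genes.

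Among markers of other testis cells, the Sertoli sum and the peritubular and stromal sum had higher medians in KO. The summed level of 10 Sertoli cell markers was 32.8 to 223 CPM (median 70.8) in WT and 52.2 to 816 (median 147) in KO, with Fshr under a median of 0.5 CPM. The 7 peritubular and stromal markers summed to 66.4 to 349 CPM (median 119) in WT and 122 to 463 (median 248) in KO, with Cnn1 under 0.5. The 7 Leydig cell markers summed to 4.93 to 9.17 CPM (median 6.56) in WT and 4.79 to 15.7 (median 6.79) in KO, and 6 of them were under 0.5. Median sums in WT and KO were 26.7 and 26.1 CPM for endothelium and 4.18 and 4.05 for macrophages and leukocytes. For erythroid cells they were 3.21 and 2.01 CPM. These sums were not tested. The part of other cells in the subunit levels was not tested.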

How the data were processed

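PolyA RNA of sorted germ cells was sequenced. Bowtie, TopHat, Cufflinks and the build mm10 are named in the submitters' processing notes, while their versions, how reads were counted and whether strand was used are not given in the sources used here. For each gene symbol the deposited tables give counts (2 tables, each with 1 library of every group) or CPM (2 tables). The latter were assumed to be FPKM from their names, but 25 of 28 deposited CPM columns equalled a count column over its total (tolerance 0.002 CPM; WT 14 with the same number, KO 11 with the other number). The other 3 (KO at 72, 96 and 120 h) matched none; they held whole multiples of 1 read (100% within 0.1), from which reads were recovered.

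In the WT libraries of the first table, summary entries that name no gene were listed too and left out, with 27.1 to 33.1% of all reads outside genes and 14.3 to 16.2% aligned at several places. CPM was computed as count over library total, with 27 date-like entries left out of the tests. Counts of 14 groups were fitted in 1 model in R 4.3.3 using edgeR 4.0.16 (scaling by TMM, default expression filter, robust quasi-likelihood test), with Benjamini-Hochberg adjustment over the 17519 genes tested and a threshold of 0.05. Alternatives were DESeq2 1.42.0, RLE scaling, no filter, replicate blocks, left-out libraries and recovered reads; those leaving out a WT table and crossing the KO numbers were chosen after seeing the data. The scripts were tested on simulated data. Deviations of WT libraries from their group means correlated within a number (0.258 to 0.517), so the numbers pair the WT libraries and these are not all independent; for KO the correlations were -0.138 to 0.567, and between genotypes at the same time -0.129 to 0.0433.

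Members and lists were chosen with earlier results of these data known. Members were named if mitochondrially coded, highest or lowest in their complex, in an isoform set, under the filter, or past the threshold (otherwise the 2 smallest p; for tests of any time the 5 smallest). The results of 1 member are not reported here, though counts include it. Genes of the other lists were named after their values were seen. Of the 97 members, 95 matched 1 annotated gene of GRCm38. Nuclear-coded members with processed copies are uncertain where reads could be split. Totals of 914126 to 10147341 reads set the precision.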

Additional observations from a re-analysis of the deposited data

How the results depend on the processing

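Counts of members past the threshold depended most on the expression filter, on the replicate block and on the WT table. In the order KO against WT as the mean over times (nuclear-coded, then mitochondrial members), at 0, 12, 18, 48, 72, 96 and 120 h, WT 12 h, WT 120 h, KO 12 h and KO 120 h against 0 h, and any time in WT (nuclear-coded), the reported counts were 15, 5, 0, 0, 0, 0, 0, 0, 4, 0, 8, 0, 0 and 7. Without the expression filter they were 30, 10, 1, 3, 10, 15, 11, 10, 24, 2, 18, 4, 6 and 30, with 9 mitochondrial members for any time in WT, 12 nuclear-coded and 13 mitochondrial for any time in KO, and 8 and 13 for genotype by time.

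With the replicate block within genotype 37 nuclear-coded members passed for the mean, 4 at 12 h, 8 at 18 h, 5 at 48 h, 12 at 72 h, 9 at 96 h and 16 at 120 h, 2 for WT 12 h, 22 for WT 120 h, 4 for KO 12 h, 30 for any time in WT and 13 in KO. With 1 replicate block for both genotypes, whose numbers did not pair across genotypes, 2 passed at 72 h and 2 at 96 h (6.75% and 5.94% of all genes). For WT 12 h, KO 12 h and any time in KO, 2, 2 and 1 passed (12.5%, 10.4% and 18.6% of all genes). With the KO numbers crossed, 27 passed for the mean, 2 at 72 h, 2 at 96 h and 11 at 120 h. That setting also gave 1 for WT 12 h, 17 for WT 120 h and 14 for any time in WT.

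Without the WT libraries of the first table, 9 nuclear-coded and 2 mitochondrial members passed for the mean, 1 at 72 h, 10 at 120 h, 4 for KO 12 h, 11 and 2 for any time in WT and 9 and 1 in KO, and the nuclear share reversed to -0.0379 points. Without those of the second, 51 passed for the mean, 1 at 0 h, 7 at 12 h, 10 at 18 h, 8 at 48 h, 12 at 72 h, 10 at 96 h, 8 at 120 h, 4 for WT 120 h, 6 for KO 12 h, and 9 and 1 for any time in KO. In the first table alone 55 and 13 passed and the nuclear share differed by 0.188; in the second alone 0 mitochondrial members passed and the share reversed to -0.0674. With recovered reads 10 mitochondrial members passed for the mean, 3 members at 72 h, 1 at 96 h, 1 for WT 12 h and 1 for any time in KO. Of all genes 8.17% passed at 72 h, 5.44% at 96 h, 12.9% for WT 12 h and 20.5% for any time in KO. Without the shallow libraries 1 passed at 96 h. With RLE scaling 2 passed at 72 h, and with DESeq2 2 at 72 h, 2 at 96 h and 9 at 120 h. The causes were not tested. A count without its share over all genes does not show whether a change is particular to the members. No share is given here for some comparisons, among them single times other than 120 h with a WT table left out. Over all genes, 37.5% were called for the mean as reported, 19.6% without the filter, 43.1% with the block within genotype, 40.9% with 1 block, 39.4% with the KO numbers crossed, 27% without the first table's WT libraries, 42.9% without the second's, 37.9% in the first table, 14.9% in the second, 42.6% with recovered reads, 34.6% without the shallow libraries, 37.3% with RLE and 36.3% with DESeq2. At 120 h the shares were 15.4% as reported, 8.54% without the filter, 22.5% with the block within genotype, 18.4% with the numbers crossed, 18% and 9.56% without the first and second table's WT libraries and 16.1% with DESeq2. For any time in WT they were 37.3% as reported, 20.3% without the filter, 48.1% with the block within genotype, 43.1% with the numbers crossed and 28.2% without the first table's WT libraries.

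Leaving out 1 library at a time gave 11 to 22 nuclear-coded and 3 to 6 mitochondrial members for the mean, 0 to 1 at 72 h and at 96 h, 1 to 6 at 120 h, 1 to 9 for WT 120 h, 2 to 10 for any time in WT and 0 to 1 in KO. At 120 h the count fell to 1 without the second WT library and to 2 without either KO library; for any time in WT it fell to 2 without the second WT library at 120 h, as it did for WT 120 h, which fell to 1 without the first at 0 h. The mitochondrial count fell to 3 without any of 16 libraries, each WT library of the first table, both KO libraries at 12 and 18 h, the first KO library at 48 h, and the second at 0, 72, 96 and 120 h. Of 935 values of single called members under these alternatives, 744 kept direction and side of the threshold, 191 lost the threshold and 0 reversed. The alternatives reuse the libraries in which these members were called, so kept directions are partly built in.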
